A study of Mus musculus with 6 samples.

Results

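Marker genes of mast cells, basophils, megakaryocytes, erythroid cells and early blood progenitors were followed in the gene counts of 32D cells, to place this mouse line by what it transcribes. The markers were 30 genes given by name, and each symbol matched 1 of the 54532 gene rows of the deposited count table. They comprised 12 genes of mast cells and basophils, 8 of megakaryocytes and platelets, 8 of erythroid cells and 2 of progenitors.

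The 32D line is labelled myeloblast-like and was kept in medium with serum and interleukin-3. All cells had been transduced with the retroviral vector MSCV-IRES-GFP carrying human U2AF1, a splicing factor that reads the 3' end of introns. One group received the wild-type protein (WT, 3 libraries) and the other the S34F substitution (S34F, 3 libraries). Counts on the mouse U2af1 gene came to 56.9 to 97.9 CPM (counts scaled to library size by TMM) in WT libraries. In S34F libraries they came to 57.3 to 91.9 CPM. Whether reads of the human vector were among these counts was not examined. Cells without a U2AF1 vector were not analysed here, and the labels name neither clones nor separate cultures. The p-values therefore rest on differences among libraries that may be technical in part.

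Mast cells and basophils carry the high-affinity IgE receptor, built from Fcer1a, Ms4a2 and Fcer1g, and store proteases and histamine in granules. Megakaryocytes carry the fibrinogen receptor, made of Itga2b and Itgb3, and the von Willebrand factor receptor GPIb-IX-V, and load platelet chemokines into granules. Erythroid cells turn on the globins and red cell membrane proteins under GATA1 and KLF1. These lineages share progenitors that use GATA2, and mast cells keep the stem cell factor receptor Kit.

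Libraries held 16509899 to 19129250 counts, so that 3 counts, the limit a count of 0 allows, equalled 0.156 to 0.182 CPM (counting error only). WT replicates 2 and 3 differed by a biological coefficient of variation of 3.21%, against 16.5% to 29.5% for all other pairs of libraries, and were kept as separate libraries. Mitochondrial transcripts took 2.02% to 2.14% of counts in S34F and 2.73% to 2.98% in WT libraries. Markers of lymphoid cells were near the floor, with 7 of 12 genes at 0 in every library and summed levels of 0.182 to 1.76 TPM (a scaled level that also divides by exon length) in S34F and 1.18 to 3.39 TPM in WT. Eosinophil markers summed to at most 1.27 TPM in any library, and none of the 8 reached 1 CPM. Of 12 genes of connective tissue, endothelium and epithelium, 4 reached 1 CPM, led by Pecam1 (117 TPM), which platelets and myeloid cells also carry.

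The 30 markers differed by lineage in how many were counted. Of the 8 megakaryocyte genes 7 had a mean of at least 1 CPM over the 6 libraries, against 3 of the 12 mast cell and basophil genes, 1 of the 8 erythroid genes and 0 of the 2 progenitor genes. In all, 11 markers reached 1 CPM, 11 were counted below it and 8 had no count in any library. By mean level per exon length, Ccl3 stood highest with 485 TPM, which ranked 247 among the 24454 genes with any TPM. Itga2b followed with 405 TPM at rank 306. The mean of Ccl3 joined uneven libraries, with 485, 1440 and 476 TPM in S34F replicates 1 to 3. Its WT replicates 1 to 3 gave 385, 62.5 and 64.7 TPM. Itga2b was at 324 to 484 TPM, and was above Ccl3 in S34F replicate 3 and in WT replicates 2 and 3. Pf4, Ccl4 and Itgb3 had means of 118, 110 and 83.1 TPM, and no other marker was above 15.3 TPM. RNA was taken from whole cultures, so fewer cells of a type and less RNA per cell cannot be told apart.

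**Figure D1:**
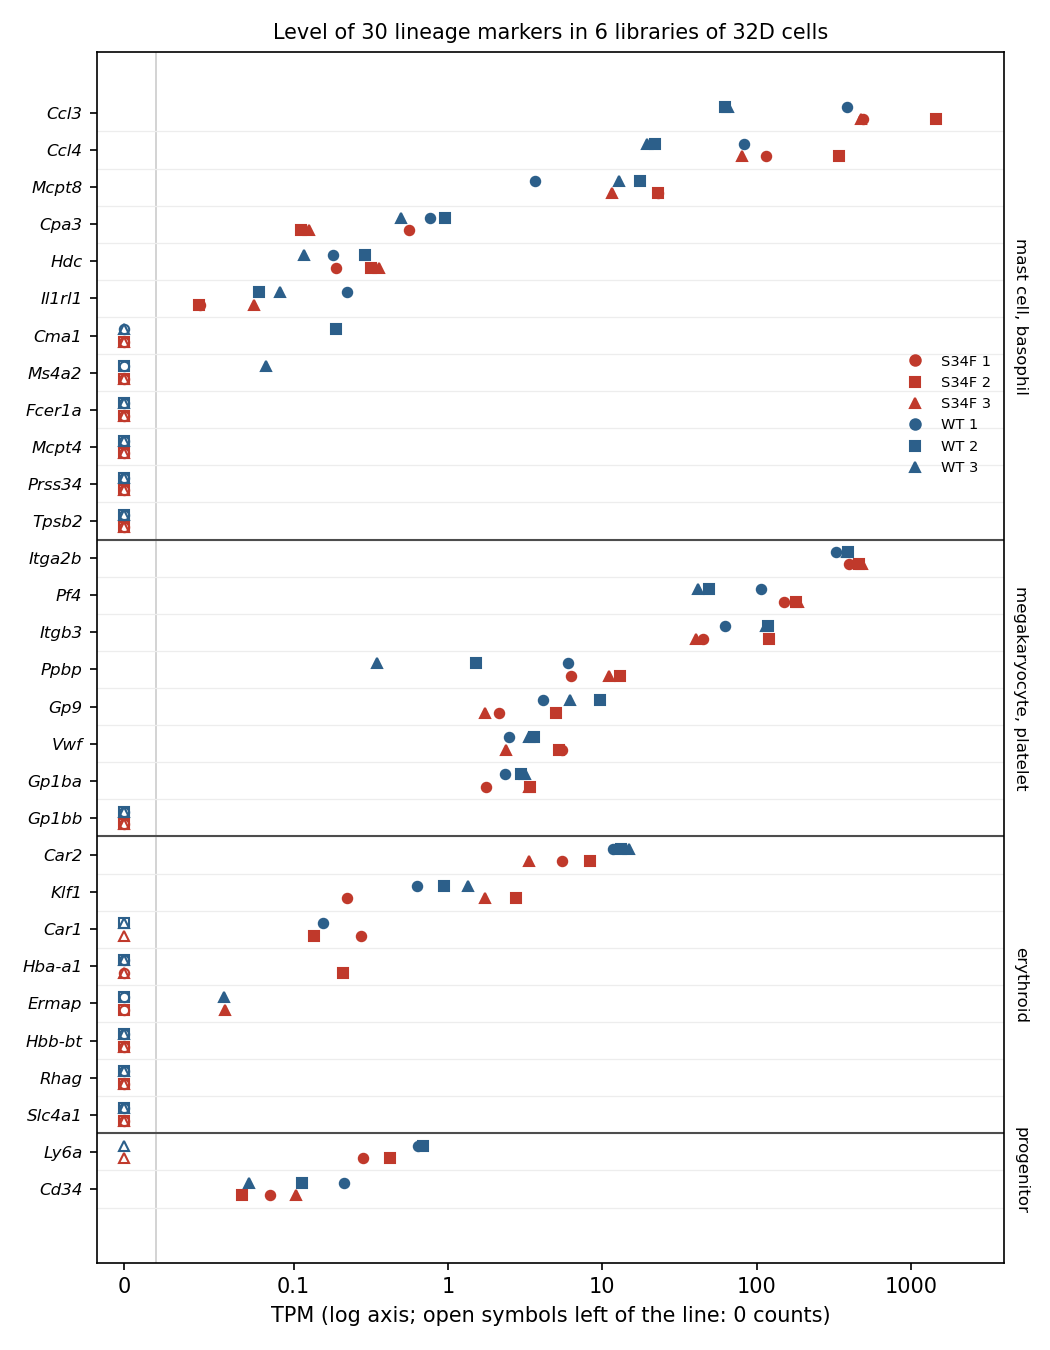
Level of each marker in each library, in TPM on a log axis, with genes grouped by lineage and ordered by mean level. Open symbols at the left are libraries with 0 counts; the megakaryocyte genes other than Gp1bb lie above 0.3 TPM in every library, while most mast cell and erythroid genes lie at or near 0.

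Sequence before the start of the markers was read from RefSeq (GRCm38.p6), where 22 of the 30 markers had an entry. In the 250 bases before each start, 2 sets of letters were searched on both strands, AGATAA or TGATAA, which GATA factors favour, and AGGAAG, which ETS factors favour. GATA letters were in 11 of these 22 genes, or in 52.2% of their 23 windows against 16.6% of all 32851 windows. ETS letters were in 34.8% against 29.5%. GATA letters were in 1 of 7 markers at 1 CPM or more and in 10 of 15 markers below it, as a description of these letters only. The windows shown belong to the neighbours Pf4 and Ppbp, to Gp1ba as the 1 marker above 1 CPM with GATA letters, and to Ms4a2 and Prss34 as markers with them and at most 1 count.

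Windows are written 5' to 3' on the strand of the gene, with the matches in capitals, and none overlaps an exon of the GENCODE annotation. They lie at chr5:90772185-90772434 (plus strand), chr5:90768268-90768517 (plus), chr11:70638872-70639121 (plus), chr19:11623720-11623969 (minus) and chr17:25298144-25298393 (plus).
Pf4: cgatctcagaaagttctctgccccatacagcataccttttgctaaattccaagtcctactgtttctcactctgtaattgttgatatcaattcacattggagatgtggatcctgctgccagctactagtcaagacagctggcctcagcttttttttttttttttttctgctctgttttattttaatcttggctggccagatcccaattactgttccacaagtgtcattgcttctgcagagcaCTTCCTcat
Ppbp: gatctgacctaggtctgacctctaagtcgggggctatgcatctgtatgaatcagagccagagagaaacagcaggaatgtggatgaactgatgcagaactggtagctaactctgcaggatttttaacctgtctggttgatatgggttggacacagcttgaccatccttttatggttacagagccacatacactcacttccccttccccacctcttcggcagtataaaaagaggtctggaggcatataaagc
Gp1ba: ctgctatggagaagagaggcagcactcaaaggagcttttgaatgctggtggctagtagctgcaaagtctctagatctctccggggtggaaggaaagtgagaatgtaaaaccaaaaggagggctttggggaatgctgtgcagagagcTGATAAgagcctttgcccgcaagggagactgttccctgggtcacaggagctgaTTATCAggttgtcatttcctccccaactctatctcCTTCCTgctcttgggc
Ms4a2: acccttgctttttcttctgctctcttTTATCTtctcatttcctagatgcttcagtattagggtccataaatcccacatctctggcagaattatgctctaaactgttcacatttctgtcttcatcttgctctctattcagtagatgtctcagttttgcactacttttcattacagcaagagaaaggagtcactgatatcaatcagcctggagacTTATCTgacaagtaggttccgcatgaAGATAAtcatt
Prss34: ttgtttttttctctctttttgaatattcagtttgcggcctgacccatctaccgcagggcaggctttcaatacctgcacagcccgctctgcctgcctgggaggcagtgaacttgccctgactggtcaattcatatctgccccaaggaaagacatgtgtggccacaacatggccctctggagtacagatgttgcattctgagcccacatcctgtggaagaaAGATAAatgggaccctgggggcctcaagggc

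Pf4 held 1 match to the ETS letters, CTTCCT on its own strand 9 bases before the start, and no GATA letters. Ppbp held neither. Gp1ba held GATA letters 104 and 51 bases before the start and ETS letters 16 bases before it. Ms4a2 held GATA letters 224, 37 and 11 bases before the start and Prss34 31 bases before it. Itga2b, whose window overlaps an annotated exon and is not shown, held ETS letters 125 and 43 bases before the start.

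Both chains of the fibrinogen receptor were transcribed. Itga2b, the alpha chain CD41 (ENSMUSG00000034664, chromosome 11, 102453297 to 102470122 on the build mm10), gave 712, 769 and 830 CPM in the S34F libraries, in the order of replicates 1 to 3, which is kept below. The WT libraries gave 559, 603 and 606 CPM. Every S34F library was above every WT library, but the difference of 0.39 ± 0.11 on the log2 scale (SE, n = 3 per group) did not pass the test (edgeR adjusted p = 0.107). With the trend of each library with GC content removed, the log2 difference was 0.22 (edgeR adjusted p = 0.373), and over all alternatives the adjusted p ran from 0.0165 to 0.373.

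Itgb3, the beta chain CD61 (ENSMUSG00000020689, chromosome 11, 104608000 to 104670476), was at 88.0, 217 and 75.1 CPM in the S34F libraries. The WT libraries gave 115, 199 and 194 CPM. The groups overlapped, with S34F replicate 2 level with WT replicates 2 and 3, and the log2 difference was -0.42 ± 0.39 (SE, n = 3 per group, edgeR adjusted p = 0.567). It was -1.05 without S34F replicate 2 (edgeR adjusted p = 0.0711, the lowest over all alternatives, which reached 0.865). Per exon length, Itga2b exceeded Itgb3 in all 6 libraries, by a TPM ratio of 8.75, 3.84 and 11.95 in the S34F libraries and of 5.24, 3.28 and 3.38 in the WT libraries.

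The chains of GPIb-IX-V were present at low levels. Gp1ba, which binds von Willebrand factor, was at 1.58, 2.86 and 2.87 CPM in S34F libraries and 2.01, 2.30 and 2.49 CPM in WT libraries. Gp9, the chain GPIX, was at 0.621, 1.35 and 0.478 CPM in S34F libraries and 1.16, 2.42 and 1.57 CPM in WT libraries. The groups overlapped for both, and their log2 differences of 0.10 ± 0.32 and -1.05 ± 0.47 did not pass (SE, n = 3 per group, edgeR adjusted p = 0.878 and 0.239). That of Gp1ba was -0.03 without S34F replicate 2 or 3, and that of Gp9 ran from -1.62 to -0.73 with 1 library left out. Gp5, the chain GPV, had 38 counts over all libraries. Gp1bb had 0 counts in every library, but 91.1% of its exon bases lie in exons of Sept5 on the same strand. How reads shared by overlapping genes were counted is not given in the sources used here, so this 0 says nothing on whether Gp1bb was transcribed.

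Vwf, the carrier of factor VIII that platelets and endothelium store, was at 29.2, 25.9 and 12.004 CPM in the S34F libraries. The WT libraries gave 12.7, 16.4 and 15.5 CPM. S34F replicates 1 and 2 were above all WT libraries and S34F replicate 3 below them, and the log2 difference was 0.59 ± 0.30 (SE, n = 3 per group, edgeR adjusted p = 0.288). With 1 library left out it ran from 0.35 (S34F replicate 1) to 0.89 (S34F replicate 3). Its transcript is long, and per exon length its mean of 3.76 TPM was below the 6.36 TPM of Ppbp.

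The platelet chemokine genes Pf4 and Ppbp lie 2371 bases apart on chromosome 5 and both were higher in every S34F library than in any WT library. Pf4, which encodes platelet factor 4 (ENSMUSG00000029373, 90772435 to 90773383), was at 35.6, 40.1 and 41.7 CPM in the S34F libraries. The WT libraries gave 24.3, 10.1 and 8.60 CPM. S34F libraries were close together, and WT replicate 1 stood 2.60 times above the mean of the other 2 WT libraries. The fitted fold was 2.74, a log2 difference of 1.45 ± 0.35 (SE, n = 3 per group), which did not pass (edgeR adjusted p = 0.0699). It passed by DESeq2 (adjusted p = 7.83e-04, with 9.13% of all genes called) and by limma-voom (adjusted p = 0.0427, with 2.01%). It also passed without WT replicate 1 (edgeR adjusted p = 0.00204, with 8.51%), where the WT group is only the closest pair of libraries. Over all alternatives its adjusted p ran from 7.83e-04 to 0.260, and its log2 difference lay between 1.19 and 2.07.

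Ppbp, the precursor of neutrophil-activating peptide 2 (ENSMUSG00000029372, 90768518 to 90770063), was far lower than its neighbour. It was at 2.26, 4.32 and 3.76 CPM in S34F libraries and 2.07, 0.471 and 0.108 CPM in WT libraries, where WT replicate 1 was just under the lowest S34F library. WT replicates 2 and 3 held only 8 and 2 counts, and WT replicate 1 stood 7.14 times above their mean CPM. The log2 difference was 1.98 ± 0.73 (SE, n = 3 per group, edgeR adjusted p = 0.164). It was 3.57 without WT replicate 1 (edgeR adjusted p = 0.0206, against up to 0.451 under other alternatives), again with only the closest pair as WT group.

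**Figure D2:**
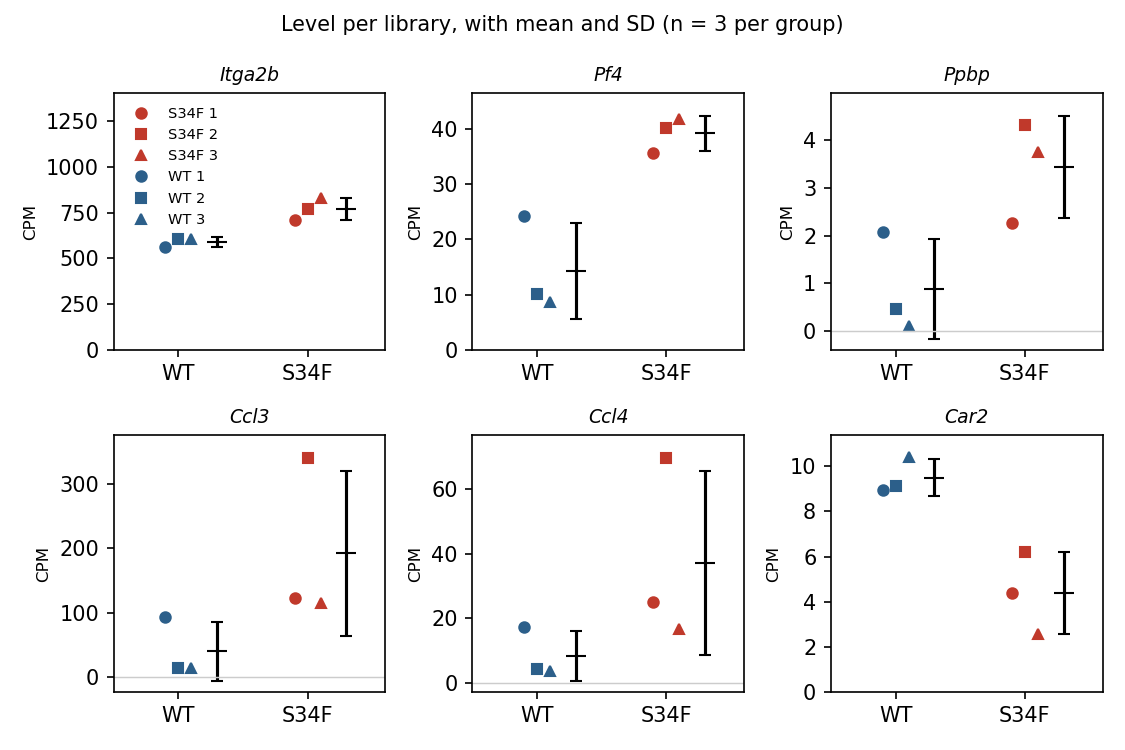
TMM-scaled CPM of 6 markers in each library (points) with the mean and SD of each group (bars beside them, n = 3), each panel on its own linear axis. For Pf4, Ppbp, Ccl3 and Ccl4, WT replicate 1 lies above WT replicates 2 and 3 and nearest to the S34F libraries; for Car2 all 3 WT libraries lie above the S34F libraries.

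Transcripts of the chains specific to the high-affinity IgE receptor were at or near 0. Fcer1a, which binds IgE, had 0 counts in every library, and Ms4a2, the beta chain, had 1 count, in WT replicate 3. The printed window of Ms4a2 held 3 matches to GATA letters. Little of either is shared with other genes: no 50-base stretch of the Fcer1a transcripts and 2.10% of those of Ms4a2 occur in transcripts of another gene. The third chain, Fcer1g, which also serves other Fc receptors, was at 69.2, 60.9 and 66.2 CPM in S34F libraries and 24.9, 24.8 and 28.1 CPM in WT libraries. Its groups did not overlap and it rose 2.52-fold (edgeR adjusted p = 0.00309).

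Transcripts of the mast cell granule enzymes of this list were at or near 0. Cpa3, carboxypeptidase A3 of mast cells, had 24 counts over the 6 libraries, at 0.0520 to 0.412 CPM. The tryptase Tpsb2, the chymase Mcpt4 and the basophil protease Prss34 had 0 counts in every library, and the chymase Cma1 had 1. Hdc, which makes histamine, had 4 to 12 counts per library, and Il1rl1, the interleukin-33 receptor, 1 to 8. Kit had 3 counts, all in WT replicate 2, and its annotated transcripts share no 50-base stretch with another gene.

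Mcpt8, a protease known from mouse basophils, was the one protease of this list above 1 CPM (ENSMUSG00000022157, chromosome 14, 56082166 to 56085273). It was at 7.62, 7.07 and 3.64 CPM in S34F libraries and 1.16, 5.01 and 3.68 CPM in WT libraries. The groups overlapped, with WT replicate 1 the lowest library, and the log2 difference of 0.90 ± 0.48 did not pass (SE, n = 3 per group, edgeR adjusted p = 0.314). It was 0.50 without WT replicate 1 and 1.33 without WT replicate 2. Mcpt8 lies in the chymase locus, where Cma1, Mcpt4, Ctsg and Gzmb also lie within 320810 bases. Ctsg, the cathepsin G of myeloid granules, lies 14607 bases from Mcpt8 and had a mean of 985 TPM. Mcpt8 and Gzmb had means of 15.3 and 2.52 TPM, and Mcpt4 had 0 counts. Ctsg ranked 116 by level among all genes, and Mcpt4, at 0, lies 19852 bases from Mcpt8 on its other side.

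The chemokine genes Ccl3 and Ccl4, which encode MIP-1 alpha and beta and are made by many activated myeloid cells, were uneven between libraries. Ccl3 (ENSMUSG00000000982, chromosome 11, 83647844 to 83649355) was at 123, 340 and 115 CPM in S34F libraries and 93.4, 13.7 and 14.3 CPM in WT libraries. Its groups did not overlap, but WT replicate 1 stood 6.68 times above the mean of the other 2 WT libraries and close to S34F replicates 1 and 3. Ccl4, which lies 13228 bases away, was at 25.2, 69.6 and 16.5 CPM in S34F libraries and 17.4, 4.12 and 3.68 CPM in WT libraries, and its groups overlapped. The log2 differences of 2.25 ± 0.86 and 2.15 ± 0.77 did not pass (SE, n = 3 per group, edgeR adjusted p = 0.196 and 0.170). Without WT replicate 1 they were 3.79 and 3.25 (edgeR adjusted p = 0.0213 and 0.0394), in a fit whose WT group is only the closest pair of libraries. Without S34F replicate 2, the highest library, they were 1.56 and 1.32 (edgeR adjusted p = 0.273 and 0.246). Over all alternatives the adjusted p reached 0.525 for Ccl3 and 0.513 for Ccl4.

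Macrophages make both chemokines, and macrophage markers were read beside them. Of 12 genes 6 were tested and 0 passed by edgeR (2.18% of all genes), with 5 positive and 4 at an unadjusted p under 0.05 (22.0% of all genes). DESeq2 called 1 (9.13% of all genes) and limma-voom 1 (2.01%). Their summed level was 313 to 418 TPM in S34F and 268 to 281 TPM in WT, most of it from Adgre1 (mean 233 TPM). Cd68, a lysosomal glycoprotein of macrophages, was at 32.4, 32.2 and 32.0 CPM in S34F libraries and 19.9, 7.54 and 7.46 CPM in WT libraries, with groups that did not overlap (fold 2.77, edgeR adjusted p = 0.0695). Cd14, the lipopolysaccharide co-receptor, was at 22.8, 11.8 and 2.93 CPM in S34F libraries and 6.57, 1.18 and 1.19 CPM in WT libraries. Csf1r, the receptor of colony-stimulating factor 1, was at 16.0, 34.9 and 4.84 CPM in S34F libraries and 10.3, 4.54 and 5.68 CPM in WT libraries. The groups overlapped for both, with folds of 4.22 and 2.72 (edgeR adjusted p = 0.193 and 0.217). In these 3 genes and in Itgam, WT replicate 1 was the highest WT library, as for Ccl3 and Ccl4. For Itgam, 68.7% of exon bases lie in exons of Gm49368 on the same strand, so its counts depend on how shared reads were treated. WT replicate 1 was the lowest WT library for Adgre1 (198, 230 and 222 CPM) and F13a1 (1.03, 3.24 and 2.22 CPM). F13a1 was lower in S34F libraries, at 1.02, 1.20 and 0.418 CPM, with groups that overlapped (log2 difference -1.29, edgeR adjusted p = 0.189). The monocyte and macrophage genes C1qa, C1qb and Ly6c2 were at 0 in every library. The part of these genes in the chemokine levels was not tested.

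**Figure D3:**
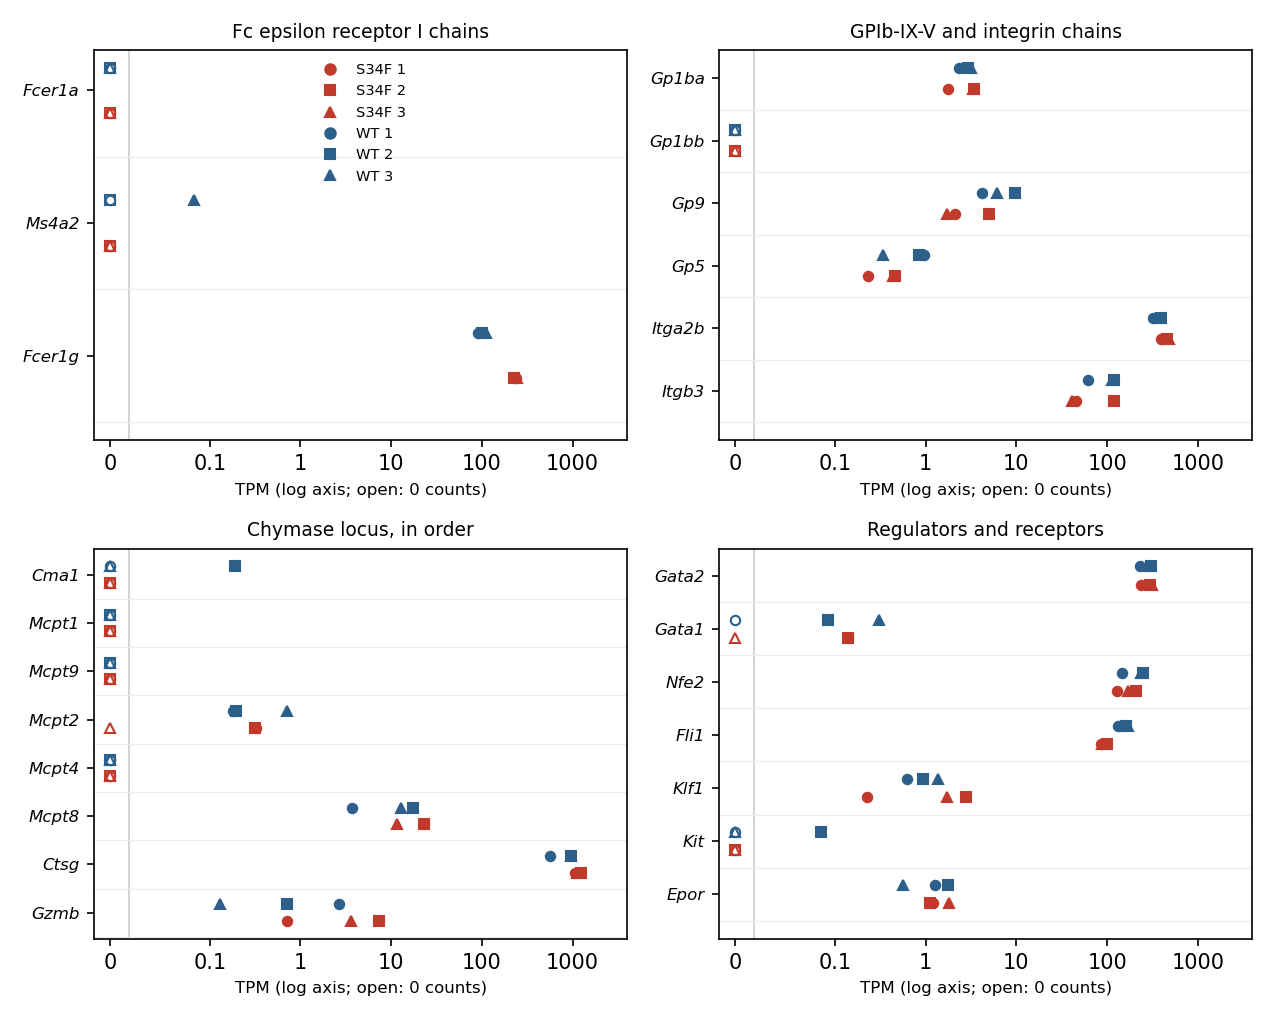
TPM on a log axis of the genes grouped by receptor, by the chymase locus in chromosomal order, and by regulator, with 1 symbol per library and open symbols for 0 counts. Fcer1g, Itga2b, Ctsg and Gata2 lie far above 10 TPM in every library, while Fcer1a, Mcpt4 and Gp1bb lie at 0.

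Most erythroid genes were at or near 0. Hbb-bt, an adult beta globin, Rhag, the Rh-associated glycoprotein, and Slc4a1, the band 3 anion exchanger, had 0 counts in every library. Hba-a1, an alpha globin, had 1 count, Ermap, a red cell membrane protein, 2 and the carbonic anhydrase gene Car1 4. Of the 50-base stretches of Hba-a1 72.3% also occur in Hba-a2, and of those of Hbb-bt 58.3% in Hbb-bs, so reads could be lost between copies. Hba-a2 had 0 counts and Hbb-bs 3. Slc4a1, at 0, lies 87093 bases from Itga2b, one of the highest markers, on chromosome 11. Whether other genes lie between them was not examined.

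Klf1, the erythroid transcription factor, was at 0.113, 1.30 and 0.836 CPM in S34F libraries and 0.304, 0.412 and 0.595 CPM in WT libraries. Its groups overlapped (log2 difference 0.77 ± 0.71, SE, n = 3 per group, edgeR adjusted p = 0.562). The difference was 0.093 without S34F replicate 2, 1.27 without S34F replicate 1 and 0.28 by limma-voom.

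Car2, carbonic anhydrase 2, which erythroid cells share with other tissues, was the 1 erythroid marker above 1 CPM (ENSMUSG00000027562, chromosome 3, 14886273 to 14900770). It was at 4.40, 6.19 and 2.57 CPM in S34F libraries and 8.94, 9.13 and 10.4 CPM in WT libraries. All WT libraries lay above all S34F libraries, with a fitted fold of 2.16 and a log2 difference of -1.11 ± 0.30 (SE, n = 3 per group). It did not pass (edgeR adjusted p = 0.0937), though it did by DESeq2 (adjusted p = 0.00887), where 9.13% of all genes passed. It also passed with no count filter (edgeR adjusted p = 0.0112), where 3.12% of all genes passed. Over all alternatives its adjusted p ran from 0.00887 to 0.305.

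Both progenitor markers were near the 3 counts that a count of 0 allows. Cd34, a sialomucin of progenitors and endothelium, had 2 to 8 counts per library, at 0.104 to 0.487 CPM. Ly6a, the antigen Sca-1 of mouse stem cells, had 0 to 4 counts, and 19.0% of its 50-base stretches occur in other genes.

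In the comparison of S34F with WT, 12 of the 30 markers had enough counts to be tested and 0 passed (edgeR, Benjamini-Hochberg adjusted p under 0.05 over 13444 genes). Over all genes tested 2.18% were called, 1.58% higher and 0.595% lower in S34F, so a count of 0 among 12 genes differs little from this background. At an unadjusted p under 0.05 there were 6 markers (Ccl3, Ccl4, Pf4, Itga2b, Ppbp and Car2), against 22.0% of all genes tested. DESeq2 called 3 (Pf4, Itga2b and Car2), against 9.13% of all genes, and limma-voom 1 (Pf4), against 2.01%. Without WT replicate 1 edgeR called 4 (Ccl3, Ccl4, Pf4 and Ppbp), against 8.51% of all genes. The groups did not overlap for 5 markers, with Ccl3, Pf4, Itga2b and Ppbp higher and Car2 lower in S34F, and 27.1% of all genes tested did not overlap. The 12 passed a filter on counts that a gene high in 1 group passes more easily, as Ppbp did, and they do not stand for all 30.

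**Figure D4:**
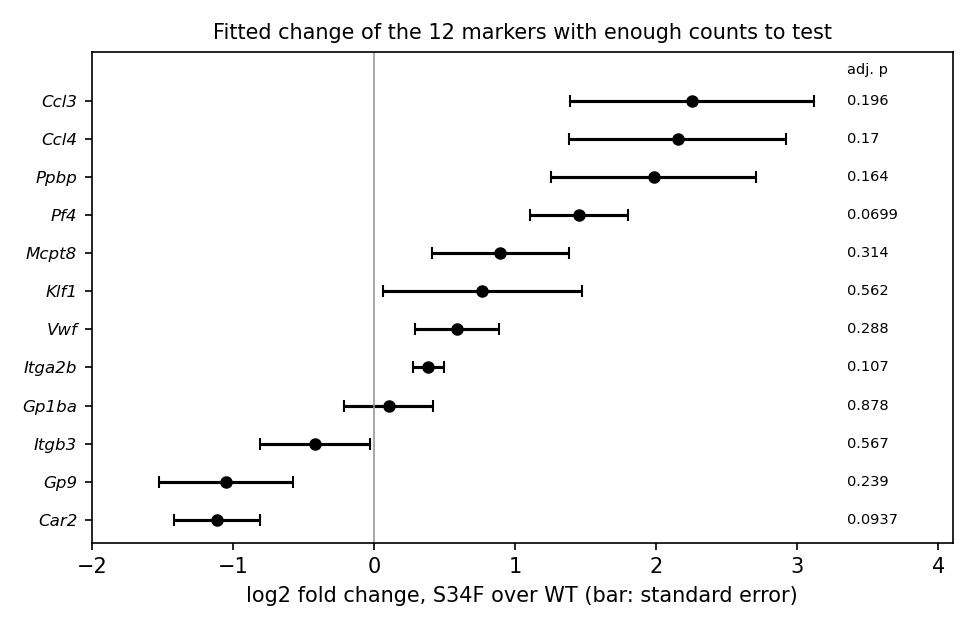
Fitted log2 fold change of S34F over WT for the 12 tested markers (points) with standard errors (bars) and, at the right, the edgeR p-value adjusted over all genes tested. The estimates run from -1.11 for Car2 to 2.25 for Ccl3, with the widest bars for Ccl3, Ccl4, Ppbp and Klf1, and none has an adjusted p under 0.05.

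Other genes of the same lineages were read from lists drawn up by name. In these lists the order of the lineages differed from that among the 30 markers, with a mean of at least 1 CPM for 26 of 42 mast cell and basophil genes, 14 of 28 megakaryocyte genes, 14 of 32 erythroid genes and 11 of 22 progenitor genes. Of 42 further mast cell and basophil genes 27 were tested, with 3 higher and 0 lower, against 1.58% and 0.595% of all genes tested. Their median log2 difference was 0.28, against a median of 0.00 over all genes tested. Beside Fcer1g, the chemokine gene Ccl9 rose 1.81-fold (edgeR adjusted p = 0.0257) and the granule membrane gene Cd63 1.45-fold (edgeR adjusted p = 0.0415). The highest per exon length were Ctsg (985 TPM), the granule proteoglycan gene Srgn (566 TPM) and Ccl9 (450 TPM), all of which other myeloid cells also express.

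Of 28 further megakaryocyte genes 15 were tested, with 0 higher and 1 lower, against 1.58% and 0.595% of all genes tested. Their median was -0.22. Fli1, an ETS factor of megakaryocytes, fell 1.59-fold. Its mean was 159 ± 14.2 CPM in WT and 100.4 ± 5.77 CPM in S34F (SD, n = 3 per group, edgeR adjusted p = 0.0276). The thrombin receptor gene F2r, Thbs1 and Plek were highest, with means of 711, 436 and 376 TPM. The platelet collagen receptor Gp6 had 0 counts and the tubulin gene Tubb1 5.

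Of 33 further erythroid genes 32 were in the table and 17 were tested. Of these 0 were higher and 1 lower, against 1.58% and 0.595% of all genes tested, and their median was -0.20. Trim58, a ubiquitin ligase of late red cell precursors, fell 4.21-fold, with 7, 8 and 10 counts in S34F and 30, 28 and 46 in WT libraries. Being higher in 1 group, it passed the filter on counts more easily. Its mean was 1.99 ± 0.442 CPM in WT and 0.469 ± 0.111 CPM in S34F (SD, n = 3 per group, edgeR adjusted p = 0.0329). Nfe2, Tfrc and Lmo2 were highest in the erythroid list, with means of 190, 157 and 151 TPM. Of 22 further progenitor genes 12 were tested, and 0 passed by edgeR (2.18% of all genes) and limma-voom (2.01%). DESeq2 called 1 (9.13% of all genes), and 4 had an unadjusted p under 0.05 (22.0%). Adgrg1, Mecom and Lmo2 led them with 1029, 287 and 151 TPM, while Hoxa9, Meis1 and Procr had 0 counts.

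Most of these calls changed with the libraries used. Over the 4 lists without repeats, 119 genes held 68 that were tested and 5 that were called, against 2.18% of all genes tested. With WT replicates 2 and 3 summed (0.145% of all genes called), or without S34F replicate 1, S34F replicate 3, WT replicate 2 or WT replicate 3, 1 gene was called each time, Fcer1g. Without those libraries, in that order, 20, 50, 19 and 22 of all genes tested were called. Without S34F replicate 2, 6 of these genes were called, against 2.46% of all genes tested. They included Fcer1g, Ccl9 and Fli1 but not Cd63 or Trim58 (edgeR adjusted p = 0.0502 and 0.0657). Without WT replicate 1 there were 15, against 8.51% of all genes tested. With the GC trend removed, the call of Cd63 was lost (edgeR adjusted p = 0.0967).

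Among the regulators of these lineages, Gata2 was high and Gata1 was near 0. Gata2 had a mean of 277 TPM and 457 CPM, and its log2 difference was 0.15 ± 0.13 (SE, n = 3 per group, edgeR adjusted p = 0.540), and Gata1 had 9 counts over all 6 libraries. Nfe2 and Tal1, which act in megakaryocytes and erythroid cells, had means of 190 and 122 TPM. The erythropoietin receptor gene Epor was at 0.786 CPM.

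The labelled myeloblast-like type was checked on genes of primary granules. Ctsg was at 985 TPM, Prtn3, proteinase 3, at 69.7 TPM and Mpo, myeloperoxidase, at 9.93 TPM, whereas Elane, neutrophil elastase, had 19 counts in all. In a wider list of 15 granule and neutrophil genes 12 were tested and 1, Lcn2, was called higher, against 1.58% of all genes tested. Of the 12, 10 were positive, with a median log2 difference of 0.41. Groups did not overlap for Lcn2 and Ctsg, both higher in S34F, while 27.1% of all genes tested did not overlap. Ctsg did not pass (edgeR adjusted p = 0.106). In the same list Ltf, Camp and Ngp had 14, 16 and 79 counts over all libraries.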

How the data were processed

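RNA of 6 samples of 32D cells was made into directional messenger RNA libraries, per the labels' protocols. The authors deposited a table of raw counts for Ensembl genes, with a column for each library, made with HISAT2 and featureCounts on mm10, per the submitters' processing notes. Not given in the sources used here are versions, strand setting, annotation and the treatment of multi-mapping reads. Columns were matched to samples by name, and groups came from sample titles.

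The test was that of edgeR 4.0.16 in R 4.3.3 (TMM, filterByExpr, robust quasi-likelihood F test, two-sided, Benjamini-Hochberg over 13444 genes at 0.05), with genotype alone in the design and 4 residual degrees of freedom. SE is the log2 fold change over the root of F. TPM used exon lengths of GENCODE M21 (mm10), in which 54409 of 54532 rows were found, with 99.957% of counts. Shared sequence was counted in 50-base stretches of its transcripts, an arbitrary length since the read length is not given. The procedure was tested on simulated data. Other tools were DESeq2 1.42.0, limma 3.58.1, Python 3.11.15 and matplotlib 3.10.9.

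All 30 markers were named, with values per library for those at 1 CPM or more. From other lists came called genes, the 3 highest by TPM and defining markers at 0. Klf1, receptor partners, genes of the chymase locus, granule genes, Cd68, Cd14, Csf1r, Itgam, F13a1, regulators and neighbours were named after their values were seen. Markers, lists, the summing of WT replicates 2 and 3 and the GC correction were chosen with earlier results of these data known.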

Additional observations from a re-analysis of the deposited data

How the results depend on the processing

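The count of 0 markers called was the same under RLE, upper-quartile and total-count scaling, a filter at 1 CPM in 3 libraries, WT replicates 2 and 3 summed and the GC correction. It was 1 with no count filter (Car2), 3 by DESeq2, 1 by limma-voom (Pf4) and 2 with the replicate number as a block (Itga2b and Car2, with 10.5% of all genes called), and 0 to 4 with a library left out. The log2 difference of Gp1ba turned to -0.0274 and -0.0252 without S34F replicates 2 and 3 (range -0.0274 to 0.33 over the libraries left out), and no other marker changed sign under any alternative. The number of markers at 1 CPM or more stayed within 1.5 times of 11 under all alternatives.

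Over all genes 293 were called, against 763 with no count filter, 1227 by DESeq2, 1418 with the replicate block, 20 with WT replicates 2 and 3 summed, 163 with the GC trend removed and 19 to 1177 with a library left out. Of the 119 listed lineage genes 5 were called, where 2.18% of all genes tested were called. By DESeq2 15 were called (9.13% of all genes), and with WT replicates 2 and 3 summed 1 (0.145%). With a library left out 1 to 15 were called. Libraries with the same number had deviations that correlated at 0.320, 0.154 and 0.0656 across genes. S34F replicate 1 correlated with WT replicates 2 and 3 at -0.246 and -0.230. S34F replicate 3 correlated with WT replicate 2 at 0.0755. Deviations were taken from the mean of each group, so those within a group cancel for each gene. As WT replicates 2 and 3 hardly differed, both deviate opposite to WT replicate 1, and these values are not independent of each other. They do not settle whether the numbers pair the libraries. The main test left the numbers out of the design. In a single library a count of 0 allows up to 0.182 CPM, and 18 markers had too few counts for a test.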
